A study of Mus musculus with 10 samples.

Results

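The let-7 family was followed here through small RNA libraries of Day 6 mouse embryoid bodies (EBs). The members are the mature arms of the 10 let-7 hairpins in the GENCODE vM21 annotation other than Mirlet7e, namely Mirlet7a-1, Mirlet7a-2, Mirlet7b, Mirlet7c-1, Mirlet7c-2, Mirlet7d, Mirlet7f-1, Mirlet7f-2, Mirlet7g and Mirlet7i, out of 1174 annotated miRNA hairpins. Copies that give the same reads were counted together, which left 16 let-7 arms, and 12 of these had at least 1 read, out of 765 arms with a read in the whole series. The membership was set by gene name and used no measured value.

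In all, 10 libraries in 5 groups of 2 replicates were compared. They all came from XY mouse embryonic stem cell (mESC) lines differentiated to EBs and collected on Day 6. Germ cell-like cells (mPGCLCs, cells specified in the EB that resemble primordial germ cells) were represented by the E14 and BG5 lines, and the surrounding EB cells (non-PGCLCs) by E14, BG5 and SGET. E14 is a 129/Ola line without a reporter, BG5 carries Blimp1-GFP on a C57BL/6J/DBA/129 background, and SGET carries Stella-GFP and Esg1-tdTomato on a B6CBA/129 background. Per the study's methods, E14 mPGCLCs were sorted as Ssea1-positive and Cd61-positive and BG5 mPGCLCs as Ssea1-positive and Blimp1-GFP-positive, whereas the labels give one Stella-GFP and Esg1-tdTomato gate for every mPGCLC sample. The line's own markers were also used to sort the surrounding EB cells. Each line and its sort gate therefore cannot be told apart in a comparison between lines. The SGET mPGCLCs and the in vivo germ cells of the study were not analysed here.

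let-7 miRNAs are processed from hairpin precursors by Drosha and Dicer, and the 5p strand of the hairpin is the one that usually enters Argonaute and pairs with target mRNAs through its seed, bases 2 to 8. The family is known for being held low in pluripotent cells and for accumulating as cells differentiate. LIN28 proteins are known to bind a GGAG motif in the loop of let-7 precursors and to recruit enzymes that add uridines to the precursor, and Lin28a is known to be needed for germ cell specification in the mouse, where let-7 can repress Blimp1.

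The 5p sequences are shown because all 7 share 1 seed and differ by few bases, so that every count below depends on telling them apart. They are the RefSeq entries for build GRCm38.p6, 5′ to 3′, with the seed in capitals.
let-7a-5p: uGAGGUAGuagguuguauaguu
let-7b-5p: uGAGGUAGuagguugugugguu
let-7c-5p: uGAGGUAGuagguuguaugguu
let-7d-5p: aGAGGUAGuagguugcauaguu
let-7f-5p: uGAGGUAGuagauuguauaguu
let-7g-5p: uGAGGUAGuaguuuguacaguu
let-7i-5p: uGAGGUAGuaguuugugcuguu
let-7d-3p: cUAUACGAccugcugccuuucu
miR-98-5p: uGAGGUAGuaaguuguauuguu

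The seed GAGGUAG was found in 13 of 1738 RefSeq mature mouse sequences, which besides the let-7 hairpins belong to Mir98, Mir7k and Mir1961. Counted from 1 at the 5′ end and with let-7a-5p as the reference, let-7c-5p differed by A19G, let-7b-5p by A17G and A19G, and let-7d-5p by U1A and U16C. let-7f-5p differed by G12A, let-7g-5p by G12U and U18C, and let-7i-5p by 4 substitutions, G12U, A17G, U18C and A19U. let-7a and let-7c are identical over their first 18 bases and are separated by 1 base near the 3′ end. Reads too short to show that base were left out of both arms, and they were at most 0.0462% of the let-7 reads of a library.

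The hairpins lie at 7 places in the genome (GENCODE vM21, build GRCm38), and the genes named here are on the same strand as the hairpin. Mirlet7a-1 (chr13:48538179-48538272), Mirlet7f-1 (chr13:48537829-48537917) and Mirlet7d (chr13:48536012-48536114) overlap exons of the lincRNA 6720427I07Rik. Mirlet7c-2 (chr15:85706603-85706697) and Mirlet7b (chr15:85707319-85707403) overlap exons of Lncppara, Mirlet7i (chr10:122985640-122985724) overlaps an exon of the transcribed pseudogene D630033A02Rik, and Mirlet7g (chr9:106178840-106178927) sits in an intron of Wdr82. Mirlet7a-2 (chr9:41536716-41536811) is in an intron of 3110039I08Rik, Mirlet7c-1 (chr16:77599657-77599750) in an intron of Mir99ahg, and Mirlet7f-2 (chrX:151912346-151912428) in an intron of Huwe1, where Mir98 is its neighbour. Because Mirlet7a-1 and Mirlet7a-2 give the same 5p sequence, as do both Mirlet7c and both Mirlet7f hairpins, 5p reads of let-7a, let-7c and let-7f cannot be assigned to 1 of their 2 genes.

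The last 16 bases of the loop before the 3p arm are shown for 4 hairpins, because the letters GGAG, in capitals, stand there in 8 of the 10 let-7 loops. Mirlet7b has GAAG at that place, also in capitals, and Mirlet7c-2 has neither.
Mirlet7a-1 loop end: caccacugGGAGauaa
Mirlet7i loop end: cccgcuguGGAGauaa
Mirlet7b loop end: gccccuccGAAGauaa
Mirlet7c-2 loop end: ccccgcucugcgguaa

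In the 651 hairpins whose arms both match a RefSeq entry, searched on the transcribed strand only, GGAG was present anywhere in the loop of 54 (8.29%) and GAAG in that of 44 (6.76%). Presence of the letters is a description of the sequence and says nothing of binding.

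The libraries held 7421061 to 14444567 reads, of which 14.97% to 34.5% were miRNA reads. Values are given as RPM, reads scaled to a library total of 1000000, unless miRNA reads are named as the denominator. All 7 let-7 5p RNAs are 22 bases long, so their RPM levels can be set beside each other without a correction for length, although ligation can favour some sequences. Counts include PCR copies, so counting intervals would cover counting error only. Samples pool many sorted cells, and fewer cells of a type and less RNA per cell cannot be told apart.

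let-7 reads took very different shares of the 5 groups. They were 2.38% and 2.08% of all reads in the BG5 non-PGCLC libraries, 0.916% and 0.713% in E14 mPGCLC, 0.575% and 0.501% in E14 non-PGCLC, 0.381% and 0.354% in SGET non-PGCLC, and 0.108% and 0.0535% in BG5 mPGCLC. The group means were 2.23% ± 0.209, 0.814% ± 0.144, 0.538% ± 0.0528, 0.367% ± 0.0193 and 0.0807% ± 0.0385 (SD, n = 2 each), and no group overlapped with the next. BG5 thus gave both the highest and the lowest let-7 share, in its non-PGCLCs and its mPGCLCs respectively. As a percentage of miRNA reads the means were 8.47 ± 1.65 in BG5 non-PGCLC, 2.65 ± 0.214 in E14 non-PGCLC, 2.46 ± 0.284 in E14 mPGCLC, 1.18 ± 0.133 in SGET non-PGCLC and 0.427 ± 0.0986 in BG5 mPGCLC (SD, n = 2 each). On that scale the E14 cell types overlapped, and the other groups kept their order.

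let-7a-5p, the member that gives the family its reference sequence, was the most abundant arm on average in every group. It was measured at 3879 and 2728 RPM in E14 mPGCLC, 2326 and 1860 RPM in E14 non-PGCLC, 331 and 173 RPM in BG5 mPGCLC, 9629 and 7100 RPM in BG5 non-PGCLC, and 1335 and 765 RPM in SGET non-PGCLC. The groups did not overlap with each other, with BG5 non-PGCLC on top and BG5 mPGCLC at the bottom. let-7c-5p, 1 base away from let-7a-5p, stood at 1244 and 702 RPM in E14 mPGCLC, 827 and 627 RPM in E14 non-PGCLC, 262 and 85.5 RPM in BG5 mPGCLC, 5468 and 4519 RPM in BG5 non-PGCLC, and 534 and 579 RPM in SGET non-PGCLC. Only the E14 cell types overlapped. let-7b-5p followed the same order at a lower level, with 311 and 49.7 RPM in E14 mPGCLC, 116 and 81.6 RPM in E14 non-PGCLC, 17.6 and 15.9 RPM in BG5 mPGCLC, 1089 and 1168 RPM in BG5 non-PGCLC, and 66.7 and 112 RPM in SGET non-PGCLC. Its E14 mPGCLC replicates were 6.25-fold apart and spanned both the E14 and the SGET non-PGCLC values.

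let-7d is the member with the most reads from the other arm of its hairpin. Its 5p arm was measured at 741 and 581 RPM in E14 mPGCLC, 538 and 706 RPM in E14 non-PGCLC, 31.0 and 45.4 RPM in BG5 mPGCLC, 1948 and 2181 RPM in BG5 non-PGCLC, and 162 and 180 RPM in SGET non-PGCLC. Its 3p arm gave 171 and 86.6 RPM in E14 mPGCLC, 144 and 145 RPM in E14 non-PGCLC, 23.6 and 6.55 RPM in BG5 mPGCLC, 350 and 328 RPM in BG5 non-PGCLC, and 54.7 and 56.4 RPM in SGET non-PGCLC. Both arms had the same order of groups once the overlapping E14 cell types are set aside. The 3p share of let-7d reads was 12.6% to 25.3% in 9 libraries and 43.2% in BG5 mPGCLC replicate 1, where it rested on 195 reads of the 3p arm and 256 of the 5p arm. In SGET non-PGCLC replicate 2 only 0.181% of the 551 let-7d-3p reads matched the hairpin exactly, beside at least 74.9% in the other 9 libraries, and 99.8% of them carried an added A at the 3′ end.

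let-7f-5p and let-7g-5p spanned, as folds of 11.1 and 14.8, the smallest ranges of group means among the 8 arms with reads in all 10 libraries. let-7f-5p was at 1493 and 1400 RPM in E14 mPGCLC, 815 and 778 RPM in E14 non-PGCLC, 273 and 121 RPM in BG5 mPGCLC, 2098 and 2296 RPM in BG5 non-PGCLC, and 864 and 853 RPM in SGET non-PGCLC. let-7g-5p was at 1149 and 1467 RPM in E14 mPGCLC, 861 and 689 RPM in E14 non-PGCLC, 134 and 86.5 RPM in BG5 mPGCLC, 1881 and 1374 RPM in BG5 non-PGCLC, and 678 and 989 RPM in SGET non-PGCLC. For let-7g-5p the BG5 non-PGCLC and E14 mPGCLC values overlapped, as did the E14 and SGET non-PGCLC values. let-7i-5p had the widest range as a fold, with 163 and 109 RPM in E14 mPGCLC, 111 and 109 RPM in E14 non-PGCLC, 7.51 and 1.37 RPM in BG5 mPGCLC, 1282 and 1747 RPM in BG5 non-PGCLC, and 107 and 0.307 RPM in SGET non-PGCLC. The SGET replicates were 350-fold apart for let-7i-5p, at 1545 and 3 reads, whereas the median arm over 100 RPM differed 1.31-fold between these libraries. A let-7i level for SGET non-PGCLC therefore cannot be given beyond these 2 values.

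**Figure D1:**
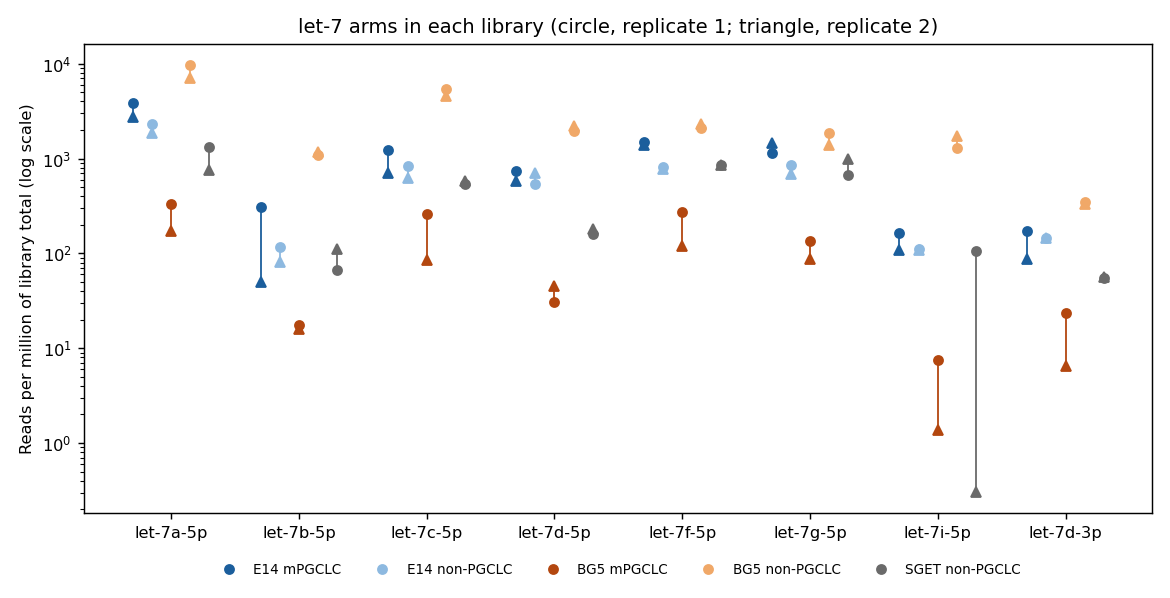
Level of the 8 let-7 arms with reads in all 10 libraries, in RPM of the library total on a log axis, by group (colour) and replicate (circle or triangle, joined by a line). BG5 mPGCLC is the lowest group for 7 arms, BG5 non-PGCLC has the highest mean for all 8, and for let-7i-5p SGET replicate 2 lies at 0.307 RPM, below the BG5 mPGCLC values.

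The comparison of cell types asks whether the germ cell-like cells differ from the EB cells around them. It was run with edgeR's quasi-likelihood test over all 561 arms that passed a filter on low counts, with Benjamini-Hochberg adjustment and a threshold of 0.05. Of the let-7 arms 10 passed that filter, the 7 5p arms, let-7d-3p, and the 3p arms of let-7c-1 and of let-7a-1/c-2. The first 8 had reads in all 10 libraries and are described by their counts and median. The last 2 had reads in 2 and 5 libraries and did not pass edgeR's test in any comparison. The shares over all arms given below include such sparse arms, so they are not matched to the 8 arms for read level.

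Within BG5, all 8 described let-7 arms fell in mPGCLCs, while 13.9% of all arms were called in either direction and 5.7% were called lower. The median log2 difference of the 8 arms was -4.33, beside -0.04 over all arms tested. let-7i-5p had the largest difference, with a log2 value of -7.94 (SE 1.62, edgeR adjusted p = 0.00168), followed by let-7b-5p at -5.40 (SE 0.82, edgeR adjusted p = 7.69e-05) and let-7d-5p at -5.02 (SE 0.49, edgeR adjusted p = 5.61e-07). let-7a-5p stood at -4.397 on the log2 scale (SE 0.36, edgeR adjusted p = 9.05e-08) and let-7c-5p at -4.26 (SE 0.41, edgeR adjusted p = 5.61e-07). The smallest differences were those of let-7g-5p at -3.2002 (SE 0.32, edgeR adjusted p = 7.11e-07) and let-7f-5p at -2.90 (SE 0.34, edgeR adjusted p = 4.40e-06). let-7d-3p stood at -3.94 (SE 0.86, edgeR adjusted p = 0.00291). As mean RPM, BG5 non-PGCLC exceeded BG5 mPGCLC 33.2-fold for let-7a-5p, 67.4-fold for let-7b-5p, 28.8-fold for let-7c-5p, 54.1-fold for let-7d-5p, 11.1-fold for let-7f-5p, 14.8-fold for let-7g-5p and 341-fold for let-7i-5p. The folds of 3 arms depended most on which BG5 mPGCLC library was used. They were 202 without replicate 2 and 1106 without replicate 1 for let-7i-5p, which has 14 and 62 reads in these libraries, 19.1 and 58.4 for let-7c-5p, and 14.36 and 51.8 for let-7d-3p. let-7f-5p was 18.2-fold apart without replicate 1. In RPM the 8 arms were all lower without overlap between the groups, as were 35.3% of all arms tested. The call of let-7d-3p was lost without BG5 mPGCLC replicate 2 (edgeR adjusted p = 0.0839) and with exact hairpin matches only (edgeR adjusted p = 0.0948).

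Within E14, 0 of the 10 let-7 arms tested were called by edgeR, and 0 had an unadjusted p under 0.05, while 2.85% of all arms were called. DESeq2 called 1 let-7 arm, let-7c-1-3p, whose E14 reads are the 107 of a single non-PGCLC library. The log2 differences of the 8 described arms ran from -0.35 for let-7d-3p (SE 0.76) to 0.71 for let-7b-5p (SE 0.68), with a median of 0.36 beside 0.00 over all arms, and the lowest adjusted p was 0.424, for let-7f-5p (edgeR; log2 0.67, SE 0.32). In RPM of all reads, let-7a-5p, let-7f-5p and let-7g-5p were higher in both E14 mPGCLC libraries than in both non-PGCLC libraries, as were 24.8% of all arms, and the other 5 overlapped. Against miRNA reads those 3 arms overlapped, and let-7d-5p, let-7d-3p and let-7i-5p were lower without overlap, as were 26.6% of all arms. The direction of some E14 values thus depended on the denominator: with miRNA reads as the scale, the log2 values of let-7a-5p (-0.04), let-7c-5p (-0.28) and let-7i-5p (-0.42) were below 0. As a ratio of means, mPGCLC over non-PGCLC, let-7d-5p stood at 0.634 on that scale and 1.06 in RPM. For let-7d-3p the ratio was 0.536 and 0.891, below 1 on both scales. The means of let-7b-5p, let-7f-5p and let-7g-5p were higher in mPGCLC on both scales.

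The difference between the lines was tested directly, as the cell type effect in BG5 minus that in E14. All 7 5p arms were called lower, while 5.7% of all arms were called in either direction and 1.78% lower. The log2 difference of effects was -4.88 for let-7a-5p (SE 0.46, edgeR adjusted p = 4.61e-06), -8.06 for let-7i-5p (SE 1.91, edgeR adjusted p = 0.0125) and -3.57 for let-7f-5p (SE 0.46, edgeR adjusted p = 3.87e-05), with the other 5p arms between. let-7d-3p stood at -3.59 (SE 1.11, edgeR adjusted p = 0.0653) and did not pass. Averaged over both lines, all 8 arms were lower in mPGCLC, beside 14.8% of all arms called in either direction and 7.13% lower, with log2 values of -3.91 to -1.11. let-7d-3p lost this call without E14 mPGCLC replicate 2, without BG5 mPGCLC replicate 2 and with exact matches (edgeR adjusted p = 0.0983 to 0.165). These means join called differences in BG5 with E14 values of which none was called.

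**Figure D2:**
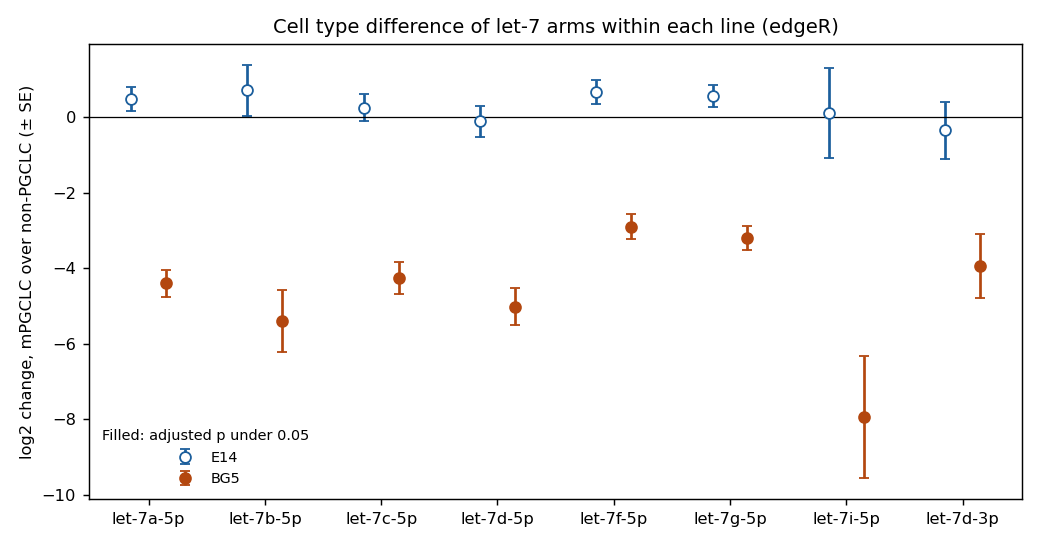
log2 difference of mPGCLC over non-PGCLC with its SE for the 8 let-7 arms with reads in all 10 libraries, within E14 (blue) and within BG5 (orange), from edgeR over all 10 libraries. The E14 values lie between -0.35 and 0.71 with no call (open circles), and the BG5 values between -7.94 and -2.90 are all called (filled circles).

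Each cell type was then compared between lines, where line, strain and the markers used for sorting change together, in the surrounding EB cells as in the mPGCLCs. BG5 mPGCLCs had lower levels of all 8 let-7 arms than E14 mPGCLCs, beside 10.2% of all arms called in either direction and 4.81% lower. In RPM the 8 arms were lower without overlap, as were 22.5% of all arms. The log2 differences ran from -5.24 for let-7i-5p (SE 1.44, edgeR adjusted p = 0.0231) to -2.75 for let-7c-5p (SE 0.38, edgeR adjusted p = 7.84e-05), and let-7a-5p was at -3.92 (SE 0.35, edgeR adjusted p = 9.17e-07). let-7b-5p (-3.57) lost its call without E14 mPGCLC replicate 1, with a log2 difference of -1.63 (edgeR adjusted p = 0.357). let-7d-3p (-3.37) lost its call in 4 of 19 alternatives, namely without E14 mPGCLC replicate 1, without BG5 mPGCLC replicate 2, with miRNA-read scaling and with exact matches (edgeR adjusted p = 0.0826 to 0.238). let-7i-5p lost its call when only arms with at least 10 RPM in 2 samples were tested (edgeR adjusted p = 0.0682).

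Among the non-PGCLCs, BG5 was higher than E14 for 3 let-7 arms, beside 15.2% of all arms called in either direction and 7.84% higher. These were let-7b-5p with a log2 difference of 2.54 (SE 0.72, edgeR adjusted p = 0.0207), let-7c-5p with 1.76 (SE 0.37, edgeR adjusted p = 0.00228) and let-7a-5p with 0.96 (SE 0.31, edgeR adjusted p = 0.0467). let-7i-5p had the largest value, 2.82, with an SE of 1.28 and no call (edgeR adjusted p = 0.182). It was called in 9 of the 10 fits that left out 1 library, the exception being the fit without BG5 non-PGCLC replicate 2. In RPM all 8 arms were higher without overlap, as were 40.1% of all arms. let-7a-5p lost its call in 3 of 19 alternatives, without E14 non-PGCLC replicate 2 (edgeR adjusted p = 0.0986), with the filter at 10 RPM in 2 samples (edgeR adjusted p = 0.0739) and with only the groups compared (edgeR adjusted p = 0.104). let-7b-5p lost its call without BG5 non-PGCLC replicate 2 (edgeR adjusted p = 0.0796). With all reads as the scale, 6 let-7 arms were called, and the median over all arms moved from 0.16 to 1.19. Of all 561 arms 73 were then called higher and 23 lower, against 44 and 41 before.

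BG5 non-PGCLC was higher than SGET non-PGCLC for 5 let-7 arms, beside 18.5% of all arms called in either direction and 9.63% higher. In RPM all 8 arms were higher without overlap, as were 35.3% of all arms. let-7d-5p differed by a log2 value of 3.12 (SE 0.45, edgeR adjusted p = 4.22e-05), let-7b-5p by 3.201, let-7c-5p by 2.65, let-7a-5p by 2.43 and let-7i-5p by 4.26 (SE 1.36, edgeR adjusted p = 0.037). The last value rests on the SGET replicates that are 350-fold apart, and it was 3.01 without replicate 2 and 11.86 without replicate 1. With only the groups compared in the fit its call was lost (edgeR adjusted p = 0.355), as was that of let-7a-5p (edgeR adjusted p = 0.0657). let-7i-5p also lost it with the filter at 10 RPM in 2 samples (edgeR adjusted p = 0.0814). SGET non-PGCLC was lower than E14 non-PGCLC for 2 let-7 arms, beside 4.63% of all arms called in either direction and 2.85% lower. In RPM, 5 of the 8 arms were lower without overlap, beside 14.3% of all arms. let-7f-5p was higher without overlap, as were 22.5%, and let-7b-5p and let-7g-5p overlapped. Against miRNA reads all 8 arms were lower without overlap, and the share of all arms was not computed on that scale. The let-7f-5p ratio of means, SGET over E14, was 1.08 in RPM and 0.699 against miRNA reads, so its direction depended on the denominator. The called arms were let-7d-5p at -2.39 (SE 0.43, edgeR adjusted p = 0.00473) and let-7a-5p at -1.47 (SE 0.32, edgeR adjusted p = 0.0155). let-7a-5p lost its call without SGET non-PGCLC replicate 2, at -0.90 (edgeR adjusted p = 0.174), with total-read scaling (edgeR adjusted p = 0.171) and with only the groups compared (edgeR adjusted p = 0.17). Without SGET replicate 1 the let-7i-5p value was -9.04, which rests on the 3 reads of the 1 SGET library left. Each of these comparisons shares 2 libraries with each of the others, so their values are set side by side only.

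The members did not keep constant proportions. let-7a-5p made up 41.0% ± 3.13 of let-7 5p reads in E14 mPGCLC, 40.0% ± 2.30 in E14 non-PGCLC, 32.0% ± 0.964 in BG5 mPGCLC, 38.0% ± 4.48 in BG5 non-PGCLC and 28.8% ± 9.63 in SGET non-PGCLC (SD, n = 2 each). let-7f-5p and let-7g-5p together made up 17.0% and 18.01% of the 5p reads in BG5 non-PGCLC and 38.6% and 39.3% in BG5 mPGCLC. These groups did not overlap. The same pair of arms took 29.4% and 40.7% in E14 mPGCLC, 30.0% and 30.2% in E14 non-PGCLC, and 41.2% and 53.0% in SGET non-PGCLC. let-7i-5p took 5.48% and 8.57% of the 5p reads in BG5 non-PGCLC, against 0.712% and 0.259% in BG5 mPGCLC, and let-7b-5p took 4.65% and 5.73% against 1.66% and 3.02%. BG5 non-PGCLC thus held the largest let-7b and let-7i shares of the 5 groups and the smallest let-7f and let-7g shares.

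**Figure D3:**
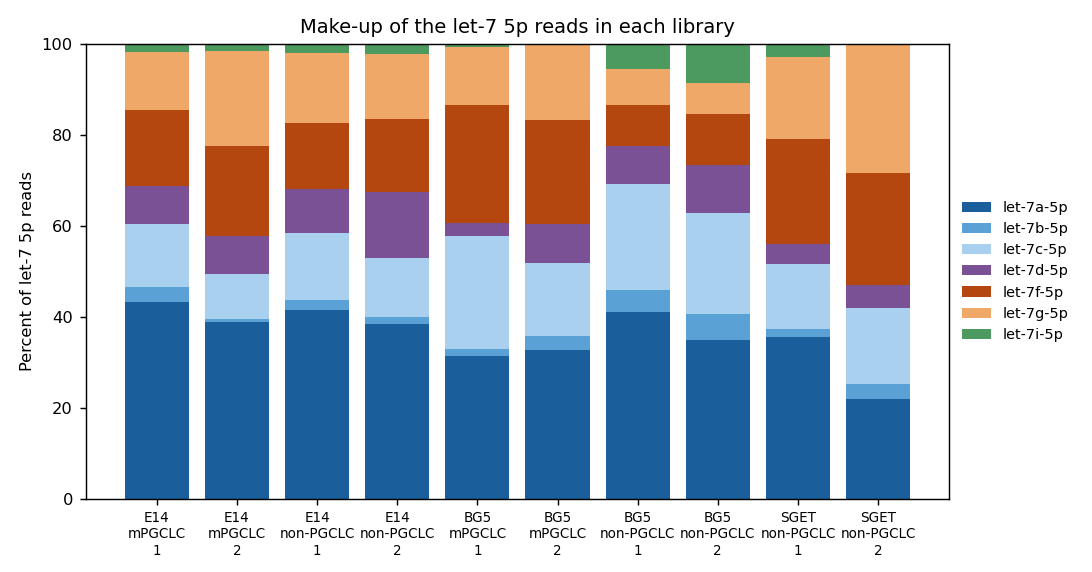
Percent of let-7 5p reads from each of the 7 5p arms, as stacked bars, in each of the 10 libraries. let-7f-5p and let-7g-5p together (both orange shades) take 17.0% and 18.01% in BG5 non-PGCLC and at least 29.4% in the other 8 libraries, and let-7i-5p (green) takes 5.48% and 8.57% in BG5 non-PGCLC.

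The 3p arms were rare apart from let-7d-3p, so that 5p reads were 96.9% to 98.8% of let-7 reads in the 10 libraries. let-7c-1-3p had 107 reads in E14 non-PGCLC replicate 1 and 638 in BG5 non-PGCLC replicate 2, and none in the other 8 libraries. let-7a-2-3p had 114 reads and let-7b-3p 271 reads in BG5 non-PGCLC replicate 2, and apart from 1 read of let-7b-3p in BG5 mPGCLC replicate 1 neither was seen elsewhere. These 3 arms, from 3 chromosomes, were all detected in the same BG5 non-PGCLC library and in none of its replicate. There, 98.2% to 99.6% of the reads of each arm were a single sequence. The 3p arm shared by let-7a-1 and let-7c-2 gave 1 to 114 reads in 5 libraries. No read of let-7a-2-3p, let-7b-3p or the shared let-7a-1/c-2-3p arm matched its hairpin exactly to the end of the read (exact match 0%), so these counts are 0 when exact matches are required, whereas at least 99.4% of the let-7c-1-3p reads were exact. The 3p arms of let-7f-1, let-7f-2, let-7g and let-7i had 0 reads in all 10 libraries, which allows up to 0.208 to 0.404 RPM, the worth of 3 reads.

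The ends of the reads were compared with the RefSeq entries. Over the 7 5p arms pooled, which are mostly let-7a, let-7c, let-7f and let-7g reads, between 97.1% and 99.98% began at the RefSeq 5′ base, which fixes the seed, beside medians of 96.1% to 99.9% over the 67 to 112 other 5p arms with at least 500 reads in a library. At the 3′ end, 77.7% to 94.2% of the let-7 reads stopped at the RefSeq base with nothing added, beside medians of 38.2% to 51.9% over those other arms. The pooled let-7 value lay above that median in each of the 10 libraries. let-7b-5p was an exception among the members, with 0% to 93.4% of its reads stopping there and a median of 45.7% over the 10 libraries, within the range of the medians of the other arms. It stood at 93.4% and 75.3% in BG5 non-PGCLC and at 0% to 64.8% in the other 8 libraries. let-7i-5p began at the RefSeq base in only 64.3% of its 824 reads in E14 non-PGCLC replicate 1. Pooled, the E14 libraries had the lowest values, 77.7% to 82.2%, and both BG5 non-PGCLC libraries the highest, 93.4% and 94.2%. Added A bases were found on 0.138% to 7.09% of pooled let-7 5p reads and added U bases on 0.0370% to 0.813%. An added base equal to the next base of the hairpin was counted as templated, so these shares leave such additions out. Templated reads that ran past the RefSeq 3′ end were 0.0115% to 3.72% of pooled let-7 5p reads, and up to 42.4% of the let-7b-5p reads of a library. For added A and U, single arms went higher in single libraries. Added A was on 99.8% of the 551 let-7d-3p reads in SGET non-PGCLC replicate 2, on 25.6% of the 858 let-7b-5p reads in E14 non-PGCLC replicate 1, on 92.9% of only 14 let-7i-5p reads in BG5 mPGCLC replicate 2, and on at most 19.0% otherwise among the 8 arms. Added U was on 26.95% of the 961 let-7b-5p reads and 5.05% of the 1545 let-7i-5p reads in SGET non-PGCLC replicate 1, and on 10.7% of the 1868 let-7d-3p reads in E14 non-PGCLC replicate 2. In BG5 mPGCLC replicate 2 it was on 7.14% of only 14 let-7i-5p reads. Reads over 26 bases were not counted, so precursors, on which the LIN28 pathway is known to act, were not measured.

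**Figure D4:**
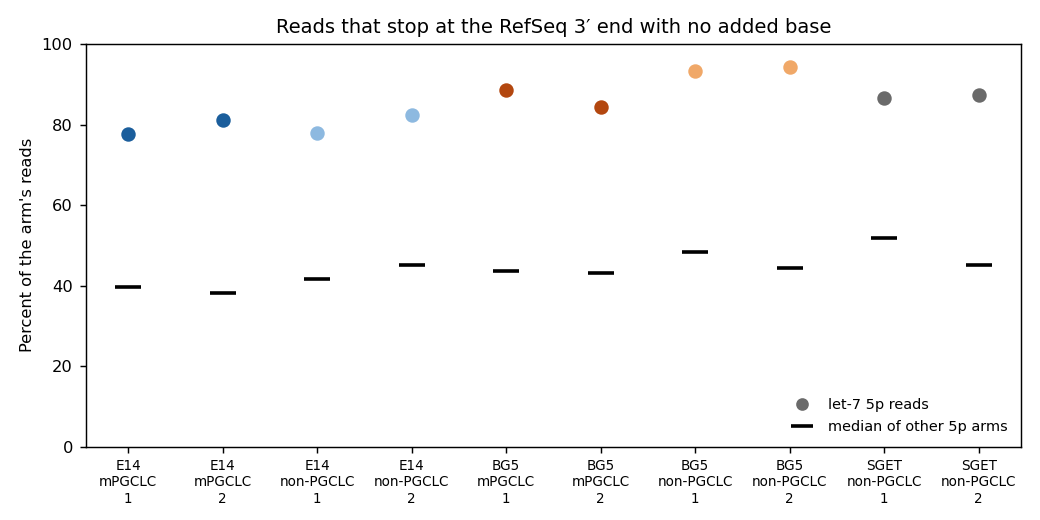
Percent of let-7 5p reads in each library that stop exactly at the RefSeq 3′ end with no added base (circles, coloured by group, all 7 5p arms pooled), beside the median over 67 to 112 other 5p arms (black bars). The pooled let-7 reads lie at 77.7% to 94.2% and the medians at 38.2% to 51.9%.

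The number of distinct sequences behind the counts differed between the BG5 groups. Each 5p arm was made of 1 to 8 distinct sequences in the BG5 mPGCLC libraries and of 15 to 40 in BG5 non-PGCLC. In the E14 libraries each 5p arm had 7 to 35. Low counts with few distinct sequences hold little information on ends and lengths, and the let-7i-5p level in BG5 mPGCLC rests on 62 and 14 reads. In BG5 mPGCLC replicate 1, a single sequence made up 99.3% of the 145 let-7b-5p reads and 98.8% of the 256 let-7d-5p reads. In replicate 2 the top sequence made up 46.6% of 163 and 88.4% of 464 reads. The part of PCR copies in these levels was not tested.

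Neighbours and relatives of the let-7 hairpins were read from the same fit. miR-98-5p, which shares the let-7 seed and the Huwe1 intron with Mirlet7f-2, was measured at 63.3 and 57.9 RPM in E14 mPGCLC, 23.6 and 17.8 RPM in E14 non-PGCLC, 0.364 and 16.6 RPM in BG5 mPGCLC, 153 and 103 RPM in BG5 non-PGCLC, and 14.6 and 105 RPM in SGET non-PGCLC. It was highest in BG5 non-PGCLC replicate 1, and its log2 value within BG5 was -2.92 (SE 1.68, edgeR adjusted p = 0.411), which did not pass. Of the 5 arms tested from Mir98, Mir100, Mir125b-1, Mir99a and Mir125b-2, which neighbour let-7 hairpins in the genome, 2 were lower in mPGCLC within E14 and 2 within BG5, beside 2.32% and 5.7% of all arms called lower. The same 2 arms were called in both lines. The 5p arm shared by Mir125b-1 and Mir125b-2 had 3.38 and 9.69 RPM in E14 mPGCLC, 311 and 398 RPM in E14 non-PGCLC, 54.8 and 60.8 RPM in BG5 mPGCLC, and 4361 and 4639 RPM in BG5 non-PGCLC. Its log2 difference was -5.97 within E14 (SE 0.57, edgeR adjusted p = 2.29e-06) and -5.58 within BG5 (SE 0.55, edgeR adjusted p = 6.29e-07). Mir100-5p had 1 read in each E14 mPGCLC library against 575 and 794 in E14 non-PGCLC, and 0 and 224 reads in BG5 mPGCLC against 15561 and 15456 in BG5 non-PGCLC (edgeR adjusted p = 0.0178 and 0.0205). Mir125b-1 and Mir100 neighbour Mirlet7a-2, and Mir125b-2 and Mir99a neighbour Mirlet7c-1. Mir202, whose RefSeq arms do not carry the GAGGUAG seed, had at most 2.15 RPM of either arm in any library. let-7e-5p, whose hairpin was set apart by the rule, fell by 3.09 on the log2 scale within BG5 (SE 0.30, edgeR adjusted p = 5.61e-07) and stood at -0.33 within E14 (SE 0.28, edgeR adjusted p = 0.633). Its cluster partners Mir99b-5p and Mir125a-5p fell by 1.06 each within BG5 (edgeR adjusted p = 0.0205 and 0.00574).

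The labelled cell types were checked with miRNAs known to mark them. The 11 hairpins of the miR-290 and miR-302 clusters, which mark pluripotent and early germ cells, summed to 196575 to 224300 RPM in E14 mPGCLC and 93560 to 135103 RPM in E14 non-PGCLC. In BG5 they summed to 52745 to 75176 RPM in mPGCLC and 8094 to 9216 RPM in non-PGCLC, and in SGET non-PGCLC to 143614 to 158881 RPM. Of their 20 arms tested, 14 were higher in mPGCLC within BG5, beside 8.2% of all arms, with a median log2 difference of 4.00 by edgeR. Within E14, 0 of the 20 were called by edgeR or DESeq2 and 7 had an unadjusted p under 0.05, beside 65 of all 561 arms, with a median log2 difference of 0.58. The E14 and SGET non-PGCLC libraries thus carried more of these RNAs than BG5 mPGCLCs. Mesenchymal miRNAs, the 4 hairpins of miR-199 and miR-214, summed to 19.0 to 23.6 RPM in E14 mPGCLC, 1060 to 1242 RPM in E14 non-PGCLC, 116 to 144 RPM in BG5 mPGCLC, 13165 to 22031 RPM in BG5 non-PGCLC and 425 to 427 RPM in SGET non-PGCLC. Of 5 such arms tested, 2 were lower in mPGCLC within E14, beside 2.32% of all arms, and 3 within BG5, beside 5.7%. The group with the highest let-7 levels, BG5 non-PGCLC, had the highest mesenchymal and the lowest pluripotent marker sum. E14 mPGCLC, next in let-7 share of all reads, had the highest pluripotent and the lowest mesenchymal sum. BG5 mPGCLC, with the lowest let-7 share, had lower pluripotent and higher mesenchymal sums than E14 mPGCLC. The part of these differences in cell make-up in the let-7 result was not tested. Of the 11 arms tested from endothelial (Mir126a), blood, muscle, neural and liver (Mir122) lists, edgeR called 0 within E14 and 0 within BG5, where 0 and 2 had an unadjusted p under 0.05, beside 65 and 116 of all 561 arms. DESeq2 called 1 in each line, beside 57 and 121 of all arms. The neural list summed to 229 to 310 RPM in BG5 mPGCLC and 42.6 to 53.9 RPM in BG5 non-PGCLC, without overlap, whereas its E14 cell types overlapped at 150 to 243 RPM and SGET non-PGCLC stood at 0 to 117 RPM. The blood list summed to 37.9 to 58.5 RPM in E14 mPGCLC, 1.94 to 5.52 RPM in E14 non-PGCLC, 12.9 to 18.9 RPM in BG5 mPGCLC, 7.19 to 82.5 RPM in BG5 non-PGCLC and 59.8 to 79.2 RPM in SGET non-PGCLC. Endothelial Mir126a summed to 58.9 to 65.7 RPM in E14 mPGCLC, 12.1 to 48.2 RPM in E14 non-PGCLC and 58.2 to 132 RPM in the other 3 groups. Blood and endothelial sums thus did not overlap between the E14 cell types, and the neural sums did not between those of BG5. The muscle sum was 5.97 to 61.8 RPM in E14 and BG5, overlapping between cell types, and 54.01 to 224 RPM in SGET non-PGCLC. Mir122 had at most 59.1 RPM. The part of these sums in the let-7 values was not tested. The blood markers Mir144 and Mir451a and the muscle marker Mir133b had 0 reads in all 10 libraries.

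**Figure D5:**
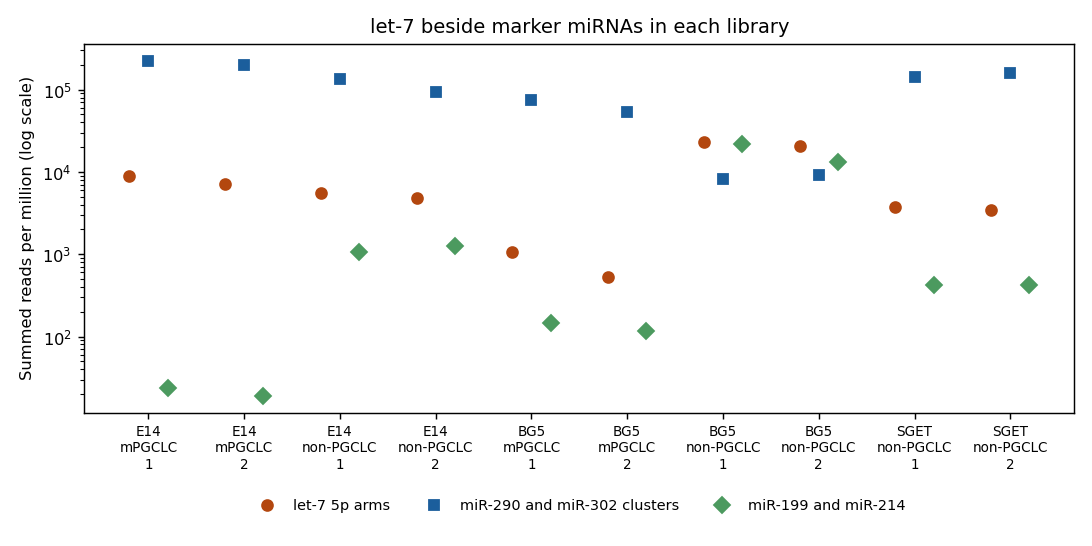
Summed RPM on a log axis of the 7 let-7 5p arms (circles), the miR-290 and miR-302 clusters (squares) and miR-199 with miR-214 (diamonds) in each library. In BG5 non-PGCLC the mesenchymal sums of 13165 and 22031 RPM lie above the pluripotent sums of 8094 and 9216 RPM, and in the other 8 libraries the pluripotent sums are the highest of the 3.

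The arms outside the Mirlet7 hairpins whose levels most resembled summed let-7 5p were found by Pearson's r of log2(RPM + 1) over the 10 libraries, among 366 arms with a mean of at least 10 RPM. The 5 highest were Mir3107/Mir486-5p (r = 0.904), Mir8114-3p (0.892), Mir296-3p (0.799), Mir145a-3p (0.798) and Mir143-3p (0.787). The libraries share group, line and depth, so these values describe likeness and were not tested. Mir3107/Mir486-5p averaged 77.6 RPM in BG5 non-PGCLC and 7.47 RPM in BG5 mPGCLC, and Mir8114-3p 181 and 13.7 RPM. Mir143-3p, an miRNA of smooth muscle and mesenchymal cells, averaged 5446 RPM in BG5 non-PGCLC, 316 RPM in BG5 mPGCLC, 579 RPM in E14 mPGCLC, 581 RPM in E14 non-PGCLC and 1569 RPM in SGET non-PGCLC. Its SGET mean was above both E14 means, unlike the let-7 share. Without the BG5 mPGCLC libraries the r of Mir143-3p was 0.656, the lowest of the 5. Among the let-7 5p arms themselves r ranged from 0.677, for let-7g-5p with let-7i-5p, to 0.969, for let-7f-5p with let-7g-5p.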

How the data were processed

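As the study and its labels describe, adapters were cut with cutadapt 3.2 and reads were aligned to the GRCm38 build by STAR 2.5.3a with a limit of 2 mismatches, keeping those of 15 nt or longer. The values the authors deposited are raw read counts per distinct sequence, 1 file per library. PCR copies were not collapsed by the adapters' random bases. Libraries were run on 2 instrument types in shares that are not given, whose part was not tested. Here, reads of 18 to 26 nt were assigned to hairpin arms when their first 18 nt matched a hairpin exactly in sense, with up to 2 later mismatches. Arms sharing at least 0.5 of the smaller arm's reads were merged. Groups and replicate numbers came from the labels. Counts per arm of all 10 libraries were tested in edgeR 4.0.16 (R 4.3.3) with its quasi-likelihood test, 5 group means, filterByExpr, TMM scaling and total reads as library size. P-values were Benjamini-Hochberg adjusted over all arms of a comparison. The standard error is the absolute log2 change over the square root of F. The code was tested on simulated data. Alternatives were DESeq2 1.42.0, other scalings, filters and read lengths, exact matches, only the groups compared, the replicate block, and each library left out.

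All members were named whatever they showed, with Mir98 and the 5 most alike arms by a fixed rule. Members, lists and tests were chosen with earlier results of these data known. The label Mir292a was matched to Mir292 through its RefSeq synonym. All 10 hairpins had a RefSeq mature entry, and the let-7a-5p sequence is listed there under Mirlet7a-1. The samples are described as biological duplicates, and p-values measure only the spread between these samples.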

Additional observations from a re-analysis of the deposited data

Results flagged for a closer look

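The cell type effect differed between the lines for all 7 let-7 5p arms by the test of the difference itself, edgeR's interaction contrast. The effect in BG5 minus that in E14, on the log2 scale, was -4.88 for let-7a-5p, -6.11 for let-7b-5p, -4.51 for let-7c-5p, -4.91 for let-7d-5p, -3.57 for let-7f-5p, -3.77 for let-7g-5p and -8.06 for let-7i-5p. Each passed 0.05 after adjustment over 561 arms, where 1.78% of arms were called lower. Each of them also passed in all 19 alternatives run. Line, strain and sort gate differ together between these groups and cannot be told apart. With 2 libraries per group, no group was large enough to be examined for a single outlying library.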

How the results depend on the processing

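Within BG5 and for the difference between lines, the 7 let-7 5p arms kept direction and call under all 19 alternatives. Leaving out each library gave 7 to 8 called let-7 arms within BG5, on average over lines and for the difference between lines, 6 to 8 for mPGCLCs between lines, 2 to 4 for non-PGCLCs of BG5 against E14, 5 for BG5 against SGET, 1 to 3 for SGET against E14, and 0 within E14. In these fits a group left with 1 library is assumed to vary like the other groups. Of the 696 to 722 arms tested in them, 71 to 102 were called within BG5 (78 of 561 with all libraries), 77 to 112 on average over lines (83), 33 to 58 for the difference between lines (32), 53 to 73 for mPGCLCs between lines (57), 82 to 115 for BG5 against E14 (85), 99 to 136 for BG5 against SGET (104), 29 to 55 for SGET against E14 (26) and 14 to 35 within E14 (16).

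The counts that moved by over 1.5 times, or from 0, were as follows, with the counts over all arms beside them. Within E14, DESeq2 called 1 let-7 arm instead of 0, and 57 of all arms instead of 16. For BG5 against E14 non-PGCLC the count of 3 became 6 with total-read scaling and 5 with miRNA-read scaling (all arms 96 and 89, against 85). For SGET against E14 the count of 2 became 1 with total-read scaling, 1 with only the groups compared (all arms 24 of 561 and 9 of 394, against 26 of 561) and 1 without SGET replicate 2 (29 of 722). For BG5 against SGET the count of 5 became 8 with DESeq2, 8 with miRNA-read scaling and 3 with only the groups compared (all arms 178 and 110 of 561 and 78 of 415, against 104 of 561). Apart from the fits that left out a library, every other count stayed within 1 let-7 arm of the reported one. With miRNA reads as denominator the let-7 share difference was -8.05 percentage points within BG5 (-2.15 of all reads), and within E14 it turned from 0.276 to -0.194.

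The log2 values that changed sign were not called under either setting. Within E14, miRNA-read scaling gave -0.0444 for let-7a-5p, -0.28 for let-7c-5p and -0.42 for let-7i-5p, total-read scaling gave 0.0877 for let-7d-5p, and let-7i-5p was -0.0146 with DESeq2 and -0.17 with exact matches. Leaving out single libraries within E14 gave ranges of -1.22 to 1.54 for let-7b-5p, -0.29 to 0.66 for let-7c-5p, -0.36 to 0.19 for let-7d-5p, -0.26 to 0.44 for let-7i-5p and -0.99 to 0.11 for let-7d-3p. Between BG5 and E14 non-PGCLC, only the groups compared gave -0.27 for let-7g-5p and -0.0770 for let-7d-3p, and leaving out libraries gave -0.0676 to 0.124 and -0.0305 to 0.30. Between SGET and E14, total-read scaling gave 0.11 for let-7f-5p and 0.11 for let-7g-5p. The cause was not tested.

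The deviations of equally numbered mPGCLC and non-PGCLC samples from their group means correlated at -0.0539 in E14 and 0.0291 in BG5. With 2 replicates per group, this cannot tell whether equal replicate numbers mark paired samples. With the replicate block the called let-7 arms were 8 within BG5, 0 within E14 and 7 for the difference between lines, beside 87, 27 and 42 of all 561 arms, against 78, 16 and 32 without it. Over all arms the number called within E14 was 16 and ran from 6 to 57 over the alternatives, and within BG5 it was 78 and ran from 68 to 121, the most by DESeq2 in both. With miRNA-read scaling the split of all arms called higher and lower for mPGCLCs between lines was 63 and 10, against 30 and 27.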
